A study of Mus musculus with 2 samples.

Results

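Klf4 and its relatives are Krüppel-like factors, transcription factors of the Klf and Sp superfamily. They were found on the arrays as gene probes whose RefSeq accession belongs to Klf4, Klf2, Klf5, Klf9, Klf6, Klf3, Klf7, Klf10 or Klf13. Of these 9 genes, 8 were measured, each by 1 probe, among 10137 genes named on the arrays, and no probe used here was named Klf3. RNA came from siKlf4 ES cells (n = 2), EB5 mouse embryonic stem cells that received siRNA against Klf4 together with a plasmid named pCAGEGFP-IP. The cells were kept on gelatin without feeders. RNA was taken once 24 h of growth had been followed by 24 h with puromycin, a drug that only plasmid-bearing cells survive. Both samples thus share the siRNA target, plasmid and drug. The comparison sample on each array was Universal Mouse Reference RNA, a commercial pool from cultured lines of embryo, embryo fibroblast, kidney, liver, lung macrophage, B cell, T cell, mammary, muscle, skin and testis origin. Both arrays had the ES cells in the green (Cy3) channel and the pool in the red (Cy5) channel, with no dye swap. A dye effect particular to a probe therefore cannot be told apart from a difference between ES cells and pool. ES cells without Klf4 siRNA were not among the samples, so each ratio below sets siKlf4 ES cells against other cell types and does not measure what the siRNA did. The labels number the ES samples 1 and 2 without saying whether they were separate cultures or received the same siRNA. The p-values therefore measure only the spread between these arrays, which may be technical.

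Krüppel-like factors bind GC-rich DNA, GC boxes and CACCC boxes, through a run of zinc fingers at the C-terminal end of the protein, while the rest of the protein differs between members and recruits activators or repressors. In mouse ES cells Klf4 lies downstream of LIF and Stat3 and supports self-renewal together with Klf2 and Klf5, which share many binding sites with it. Klf4 is also one of the factors used to reprogram somatic cells to pluripotency, and outside ES cells it is a regulator of epithelial and skin differentiation.

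The probes are 60 bases long and are shown because each gene rests on only 1 of them. For Klf5 and Klf13 the probe lies in the conserved zinc finger part of the coding sequence: a reading frame without a stop codon encodes the linker between neighbouring fingers, marked in capitals. The Klf7 probe has an open frame with a pair of cysteines as zinc fingers have, but no linker, so it has no capitals. For the other genes the first 30 bases are given.
Klf5: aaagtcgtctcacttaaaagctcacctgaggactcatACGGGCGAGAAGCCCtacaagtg
Klf13: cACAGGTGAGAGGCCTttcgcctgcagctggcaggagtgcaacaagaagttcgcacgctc
Klf7: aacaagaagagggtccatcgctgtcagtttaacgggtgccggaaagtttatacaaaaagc
Klf4: gcatacttttgacaaggaaaatctagtttt
Klf2: aggatcgaggctagatgccttgtgagaaat
Klf9: tctgaacataaactgcacttttattttcta
Klf6: agtttgaatgttttgtgtgtgaggagtata
Klf10: tgcacaatattttttgttgaactttatacc

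None of the 8 probes shared a run of more than 16 bases with any other gene probe on the array. The longest was the run of 16 bases in the Klf9 probe, and the Klf5 and Klf13 probes, which lie in the conserved fingers, each shared at most 13 bases with another probe. Similarity to transcripts of related genes was not tested. The GC content of the probes was lowest for Klf10 (25.0%) and highest for Klf13 (60.0%), both outside the range from the 5th to the 95th percentile of all gene probes (31.7% to 55.0%), and the Klf4 probe (38.3%) lay near the median of 41.7%.

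Klf4, the gene targeted by the siRNA, was well measured in the ES cells. Its spot lay 1826 and 2542 intensity units above local background in the siKlf4 ES cells on arrays 1 and 2, against 1518 and 1603 units in the reference pool. The ES cells gave the brighter spot on both arrays, but their channel was brighter over all probes. The median probe gave 308 and 355 units in the ES channel and 246 and 264 units in the reference. After background correction and dye normalisation the Klf4 log2 ratio of ES cells over reference was 0.43 and 0.59, with a mean of 0.51 ± 0.11 (SD, n = 2), a 1.42-fold difference (limma, adjusted p = 0.000463). The most extreme negative control spot, which carries no mouse sequence, had a slightly larger absolute ratio, 0.52, although such spots are dim and the Klf4 spot was bright. With each array centred on its median instead of loess, the Klf4 ratio was 0.31.

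Klf2 stood highest above the pool. Its spot reached 18981 and 25018 units in the siKlf4 ES cells and 1781 and 2330 units in the reference. The ES signal was many times the reference signal on either array, with log2 ratios of 3.49 and 3.24 and a mean of 3.37 ± 0.18 (SD, n = 2), equal to 10.3-fold (limma, adjusted p = 1.56e-06). Only a small share of all probes lay above it, since its ratio was at the 99.8th percentile of the 21028 probes tested. Klf2 is known from endothelial cells and lymphocytes, where it keeps cells quiescent, and is one of the main Klf genes of naive ES cells.

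Klf5, which acts beside Klf2 and Klf4 in ES cells and in the blastocyst, gave 1496 and 1744 units in the siKlf4 ES cells and 367 and 453 units in the reference. Its log2 ratios of 2.08 and 1.83 averaged 1.95 ± 0.18 (SD, n = 2), or 3.88-fold higher in the ES cells (limma, adjusted p = 7.18e-06). Klf5 thus took the next place after Klf2, with no overlap of the single-array values. The Klf5 ratio was 1.36 without background correction. Klf9, a GC box binding factor induced by glucocorticoid and thyroid hormone in other cells, gave 513 and 586 units in the siKlf4 ES cells and 111 and 118 units in the reference. Its log2 ratios were nearly equal on the arrays, 1.69 and 1.70, with a mean of 1.69 ± 0.0074 (SD, n = 2) or 3.24-fold (limma, adjusted p = 1.93e-06). The reference signal of Klf9 was dim, though it passed a limit of 40.9 and 58.4 units, below which 95% of spots without mouse sequence lay. Without background correction the Klf9 ratio was 0.73.

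**Figure D1:**
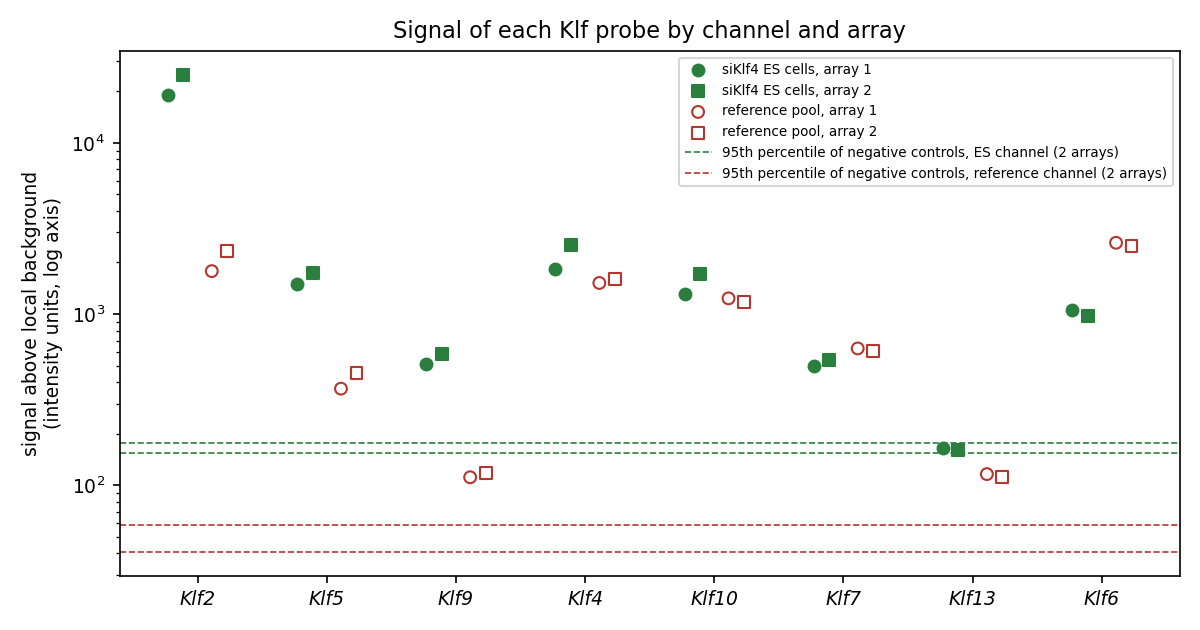
Signal above local background (intensity units, log axis) of each Klf probe in siKlf4 ES cells (filled green) and the reference pool (open red) on array 1 (circles) and array 2 (squares), with a dashed line per array and channel at the level that 95% of the negative control spots did not pass. Klf2 at 18981 and 25018 units in the ES cells stands far above its reference spots, Klf6 is brighter in the reference, and the ES spots of Klf13 lie at the ES limit.

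Klf10, an early gene of TGF-beta signalling, was close to the pool. It gave 1306 and 1708 units in the siKlf4 ES cells and 1234 and 1182 units in the reference, and log2 ratios of 0.24 and 0.47. The mean of 0.35 ± 0.16 (SD, n = 2) passed the test (limma, adjusted p = 0.00471) but was smaller than the largest ratio of a negative control spot. With median centring in place of loess it was 0.13 and did not pass (limma, adjusted p = 0.157). Klf4 and Klf10 were the only neighbours in the order of ratios whose single-array values overlapped.

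Klf6, a widely expressed factor that activates the CDK inhibitor gene Cdkn1a in other cells, was the lowest. Its spot had 1050 and 979 units in the siKlf4 ES cells and 2607 and 2485 units in the reference. The ES signal was below the reference signal on both arrays, with log2 ratios of -1.16 and -1.42 and a mean of -1.29 ± 0.18 (SD, n = 2). The reference was thus 2.44-fold above the ES cells (limma, adjusted p = 3.52e-05), and the ratio lay at the 3.68th percentile of all probes. Without background correction it was -0.98, just short of 2-fold.

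Klf7, known from neuronal differentiation, and Klf13, known from T cells, were lower by smaller margins. Klf7 gave 494 and 539 units in the siKlf4 ES cells and 629 and 607 units in the reference, and log2 ratios of -0.36 and -0.37 (mean -0.37 ± 0.0054, SD, n = 2; limma, adjusted p = 0.000459). Like Klf10, it differed by less than the most extreme negative control spot. Its ratio was -0.20 without background correction and -0.55 with median centring.

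Klf13 was near the limit of detection in the ES cells. It gave 164 and 161 units in the siKlf4 ES cells and 116 and 111 units in the reference. The ES channel has the higher background, with a median negative control spot at 129 and 138 units, against 28.5 and 32.3 units in the reference, and the ES limit of 155 and 178 units was passed on array 1 but not on array 2. The log2 ratios of -0.49 and -0.61 (mean -0.55 ± 0.086, SD, n = 2; limma, adjusted p = 0.000208) have the opposite direction to these signals, from which only the local background has been subtracted. The Klf13 ratio is uncertain and was -0.15 without background correction. The order of Klf7 and Klf13 turned round under 3 of the 10 other settings that gave both values, and the order of all other neighbours was the same under every setting tried. Settings that only filter probes or change the test leave each ratio as it was and could not turn an order.

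**Figure D2:**
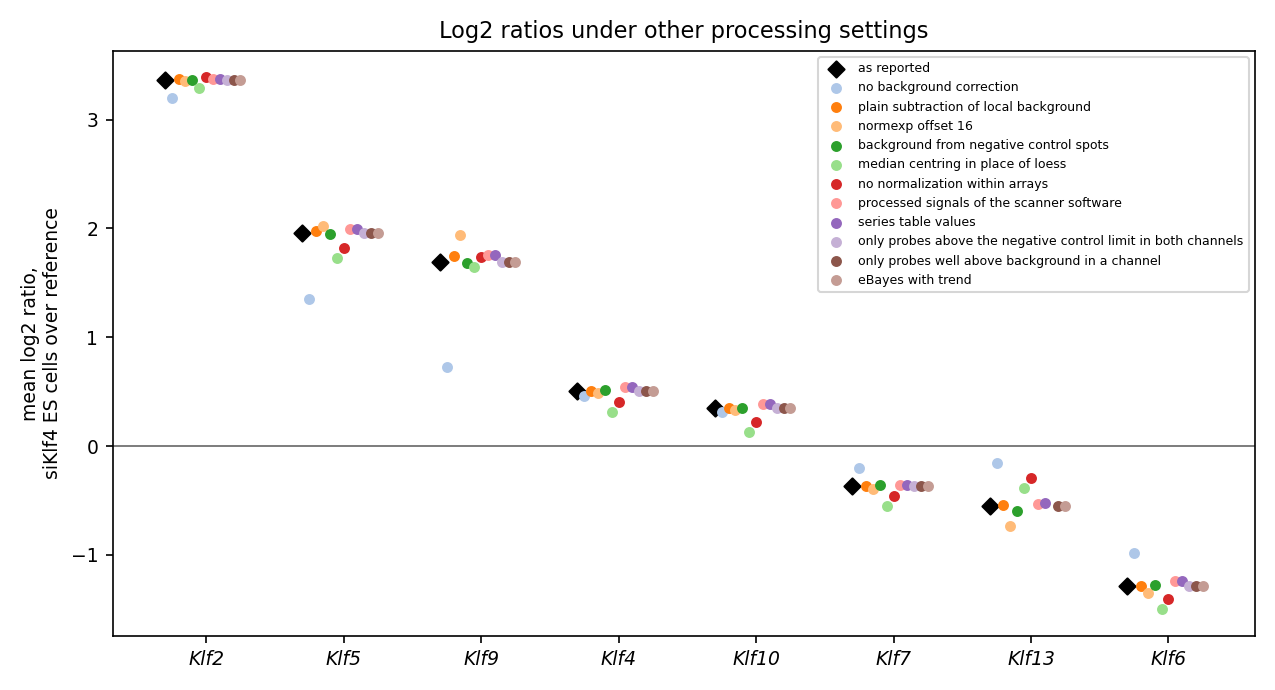
Mean log2 ratio of siKlf4 ES cells over reference for each Klf gene as reported (black diamonds) and under other processing settings (coloured circles, 1 per setting). No gene changed sign. Klf9 fell to 0.73 without background correction, and Klf10 to 0.13 with median centring in place of loess.

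Counted together, 5 of the 8 measured genes were higher (Klf2, Klf5, Klf9, Klf4 and Klf10) and 3 lower (Klf7, Klf13 and Klf6) in the siKlf4 ES cells, and 0 did not pass. At this threshold, an adjusted p under 0.05 over all probes, 31.6% of all probes were higher and 31.4% lower, so passing by itself sets no gene apart. With a difference of at least 2-fold also required, 3 of 8 were higher (Klf2, Klf5 and Klf9), against 5.08% of all probes, and 1 of 8 was lower (Klf6), against 5.19%. Klf9 and Klf6 did not reach 2-fold without background correction. Past every negative control spot, the counts were 3 higher, against 12.1% of all probes, and 2 lower (Klf13 and Klf6), against 10.8%. Klf13, near the detection limit in the ES cells, passed narrowly, at -0.55 beside a largest absolute control ratio of 0.52. Without background correction it was -0.15. The median log2 ratio of the 8 genes was 0.43, beside -0.01 over all probes. In bulk RNA, fewer cells of a type and less RNA per cell cannot be told apart, and this holds for the mixed reference above all: a gene strong in 1 line of the pool and a gene weak in all of them can give the same reference signal.

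**Figure D3:**
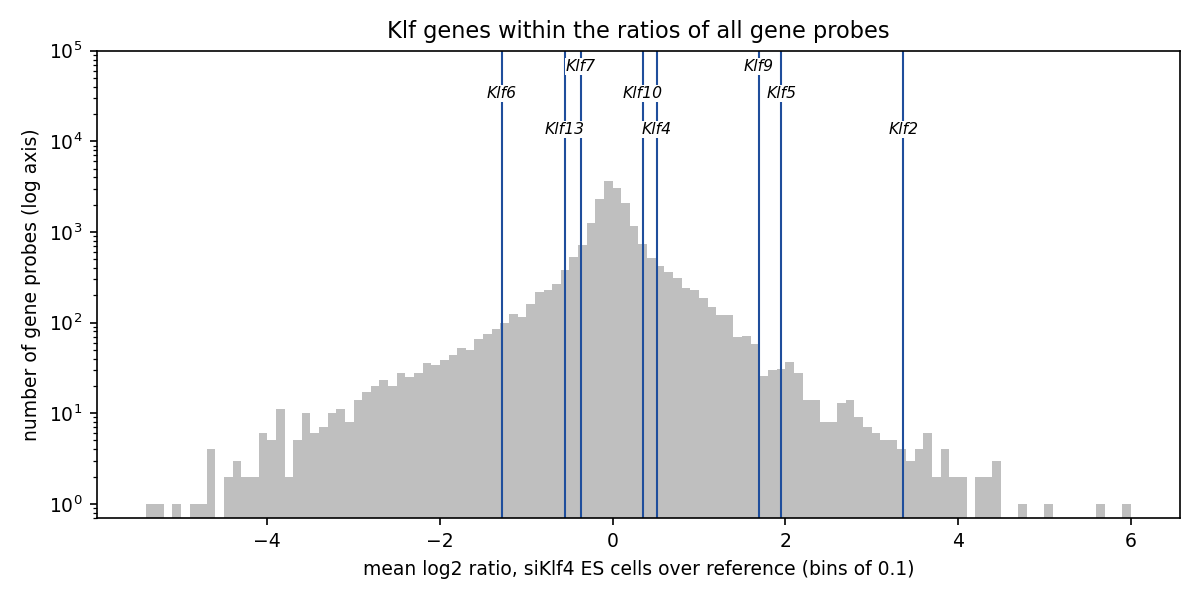
Histogram of the mean log2 ratio, siKlf4 ES cells over reference, of all 21028 gene probes tested (bins of 0.1, log axis of probe numbers), with the 8 Klf genes as vertical lines. Klf2 at 3.37 lies in the far upper tail, Klf5 and Klf9 lie in the upper tail, Klf6 at -1.29 lies in the lower tail, and Klf4 and Klf10 lie on the upper flank of the central peak.

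The arrays differed more for some Klf genes than for most probes. The difference of log2 ratio, array 2 minus array 1, was -0.25 for both Klf2 and Klf5, -0.26 for Klf6 and 0.23 for Klf10, and these 4 of the 8 genes lay beyond the 95th percentile of absolute differences over all probes, 0.22. Klf4 differed by 0.16 and Klf13 by -0.12, while Klf9 (0.01) and Klf7 (-0.01) hardly differed. Among the 6496 probes of similar brightness (average log2 signal from 9 to 13), the 95th percentile was 0.26, and only Klf6 of the 6 Klf genes in that range passed it. The sign of the ratio was the same on both arrays for all 8 genes. With 2 arrays of 1 group these differences have no test, and no gene could be named for a pattern like that of Klf4.

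The arrays held 6 other Klf genes, of which 3 were higher, none was lower and 3 did not pass, and their median log2 ratio was 0.15. Over all probes, 31.6% were higher and 31.4% lower. Klf8, a repressor that binds the CtBP corepressor, gave 352 and 500 units in the siKlf4 ES cells and 99.8 and 165 units in the reference, and was 2.16-fold higher (log2 ratio 1.11 ± 0.035, SD, n = 2; limma, adjusted p = 7.60e-06), or 0.44 on the log2 scale without background correction. Klf16 was higher at 0.51 ± 0.023 and the Sin3-binding repressor gene Klf11 at 0.21 ± 0.0083, both under the largest ratio of a negative control spot. Klf16 was 0.31 with median centring and 0.33 without background correction. With median centring in place of loess, Klf11 stood at 0.01 and did not pass (limma, adjusted p = 0.812). Klf1, the erythroid factor, had a ratio of 0.09 with ES signals of 151 and 147 units, below the ES limit on both arrays. Klf15, known from muscle and liver metabolism, stood at -0.02 and the germ cell factor Klf17 at -0.05. With median centring Klf1 (0.31; limma, adjusted p = 0.000719) and Klf17 (-0.22; limma, adjusted p = 0.00528) passed as well.

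Of the 5 Sp genes measured, 2 were higher and 3 lower, with a median of -0.28, beside 31.6% higher and 31.4% lower among all probes. Sp1, the ubiquitous GC box activator, gave 1406 and 1678 units in the siKlf4 ES cells and 737 and 769 units in the reference. It was 2.08-fold higher (log2 ratio 1.06 ± 0.0091, SD, n = 2; limma, adjusted p = 7.80e-06) and the only Sp gene past 2-fold, which it did not reach without background correction (0.81), with median centring (0.83) or without normalisation within arrays (0.92). Sp5, a target of Wnt signalling, was higher at 0.28, and the bone factor Sp7 (osterix) was lower at -0.28, or -0.45 with median centring. Sp8 (-0.49) and Sp4 (-0.53), factors of limb and brain, were counted as lower, but their ES signals did not pass the ES limit on either array. Without background correction Sp5 stood at 0.07, Sp8 at -0.14 and Sp4 at -0.10, whereas Sp5 reached 0.58 without normalisation and Sp4 -0.96 with an offset of 16.

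**Figure D4:**
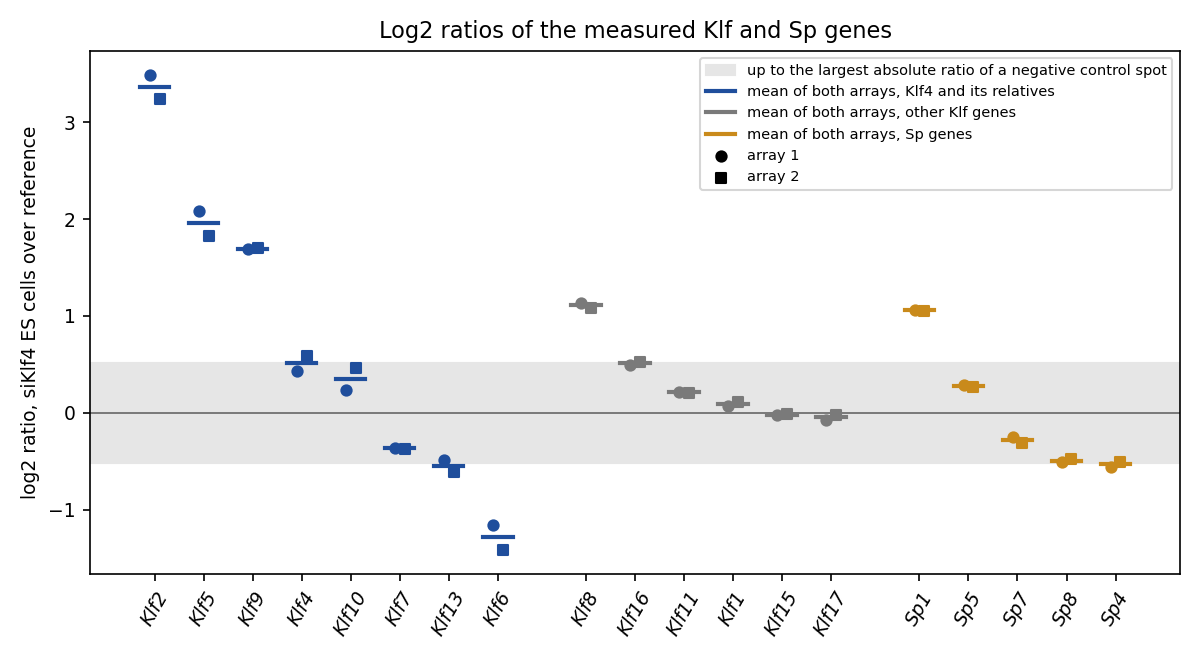
Log2 ratio of siKlf4 ES cells over reference for the 8 Klf genes (blue), the 6 other Klf genes (grey) and the 5 Sp genes (ochre), with array 1 as circles, array 2 as squares and the mean of both arrays as a bar. The grey band reaches to the largest absolute ratio of a negative control spot, 0.52. Klf2, Klf5, Klf9, Klf8 and Sp1 lie above the band, Klf6 lies below it, and Klf13 and Sp4 lie at its lower edge.

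Factors that work with Klf4 in ES cell self-renewal lay on the higher side. All 9 measured members of a list of 14 were higher, 0 lower, at a median log2 ratio of 2.86, with 5 at least 2-fold higher. Among all probes 31.6% were higher, and 5.08% were at least 2-fold higher. Esrrb (0.27) and Nr5a2 (0.36) are among the 9, though neither passed the detection limit in either channel. The orphan nuclear receptor gene Nr0b1 stood at 4.03 ± 0.052 and Dppa3 (Stella), a maternal factor of oocyte and germ cells, at 3.66 ± 0.027 (SD, n = 2 each). Sox2 (5.69) and Zfp42 (5.01) were higher still. Without background correction Nr0b1 stood at 2.85 and Dppa3 at 2.13. Since this list was chosen with earlier results of these data known, its count is no independent evidence.

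Genes of proteins that act on Klf factors went both ways. Among 8 measured cofactor genes 5 were higher and 1 was lower, 2 did not pass, and the median was 0.31. All probes went both ways too, with 31.6% higher and 31.4% lower, or 5.08% and 5.19% at 2-fold. The deacetylase gene Hdac1 gave 4101 and 5421 units in the siKlf4 ES cells and 2017 and 2139 units in the reference, a log2 ratio of 1.19 ± 0.040 (SD, n = 2; limma, adjusted p = 6.38e-06). The corepressor scaffold gene Sin3a (1.00 ± 0.19, or 0.56 without background correction) and its partner Sap30 (0.71 ± 0.058) were also higher. Ctbp1, the corepressor that several Klf factors bind, was lower, at -0.74 ± 0.054 (limma, adjusted p = 4.01e-05), or -0.44 without background correction. Of 6 measured genes that modify or degrade Klf proteins, 3 were higher, 2 lower and 1 did not pass, and none reached 2-fold. The arginine methyltransferase gene Prmt1 stood at 0.67, the ubiquitin ligase subunit gene Fbxw7 at 0.59 and Vhl, another such subunit gene, at -0.36. Without background correction Fbxw7 stood at 0.33 and Vhl at -0.10.

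The identity of the cells was described with marker lists, whose counts stand beside 31.6% higher and 31.4% lower among all probes. These lists too were chosen with earlier results of these data known, so their counts are no independent evidence. The ES cell markers also include Sox2 and Zfp42 of the self-renewal list. Of 7 measured ES cell markers, 6 were higher, 0 lower and 1, Fgf4, did not pass (log2 ratio 0.00). All 8 measured fibroblast markers were lower, with summed signals of 5238 and 6307 units in the siKlf4 ES cells and 78554 and 76054 units in the reference. Without Vim, the brightest, they were 1334 and 1442 units in the ES cells and 18917 and 18748 units in the reference. Of 7 trophectoderm markers, 2 were higher and 4 lower, with sums of 3527 and 3894 units in the ES cells and 21827 and 21814 units in the reference. The keratin gene Krt18 alone gave 19468 and 19458 units of the reference sums, and without it the sums were 2415 and 2643 units in the ES cells and 2358 and 2356 units in the reference. Tfap2c, a transcription factor gene of this list, was higher in the ES cells (log2 ratio 3.26). Of 7 primitive endoderm markers, 1 was higher and 4 lower, with sums of 2979 and 3611 units in the ES cells and 8792 and 9196 units in the reference. Without Sparc, the matrix protein gene brightest in the pool, the sums were 1931 and 2356 units in the ES cells and 2118 and 2362 units in the reference. Of 4 mesoderm markers, 0 were higher and 2 lower, with sums of 1744 and 2721 units in the ES cells and 1868 and 2619 units in the reference. All these sums still hold the nonspecific signal of each channel. A median negative control spot gave 129 and 138 units in the ES channel, against 28.5 and 32.3 units in the reference. Near-equal sums therefore do not show equal levels. The fibroblast markers moved in the same direction as Klf6, and their part in its ratio was not tested. In the ES cells, 5 of the 8 fibroblast markers passed the ES limit on both arrays. These 5 also passed the reference limit, and of all 21028 probes 17058 passed the limits of both channels. Col1a1 (178 and 190 units), Dcn (197 and 217) and Col1a2 (200 and 216) lay close to the ES limit of 155 and 178 units.

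The stretch before the start of 3 genes is shown because these factors bind GC and CACCC boxes, and because Klf2 was the highest, Klf6 the lowest and Klf4 the targeted gene. Each holds the 250 bases before the RefSeq start (build GRCm38.p6), in the direction of the gene, with GGGCGG and CACCC on either strand in capitals. The Klf4 window is chr4:55532476-55532725 on the minus strand, the Klf2 window chr8:72318812-72319061 on the plus strand and the Klf6 window chr13:5861239-5861488 on the plus strand.
Klf4: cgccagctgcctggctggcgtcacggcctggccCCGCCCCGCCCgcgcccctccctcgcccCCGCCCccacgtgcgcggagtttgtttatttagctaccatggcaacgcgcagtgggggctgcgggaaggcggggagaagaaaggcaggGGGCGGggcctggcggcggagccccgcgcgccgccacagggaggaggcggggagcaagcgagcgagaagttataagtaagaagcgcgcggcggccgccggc
Klf2: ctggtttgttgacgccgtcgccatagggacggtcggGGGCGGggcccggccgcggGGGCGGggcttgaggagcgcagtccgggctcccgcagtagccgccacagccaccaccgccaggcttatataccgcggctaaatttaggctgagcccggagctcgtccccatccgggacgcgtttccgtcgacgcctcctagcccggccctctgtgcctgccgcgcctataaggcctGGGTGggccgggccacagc
Klf6: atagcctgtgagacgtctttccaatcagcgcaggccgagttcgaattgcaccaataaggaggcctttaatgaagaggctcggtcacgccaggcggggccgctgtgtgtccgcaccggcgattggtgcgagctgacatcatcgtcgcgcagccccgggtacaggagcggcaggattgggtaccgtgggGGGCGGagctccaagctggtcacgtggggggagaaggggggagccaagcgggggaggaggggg

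The Klf4 window held 4 matches to GGGCGG, some of them overlapping, and none to CACCC. The Klf2 window held 2 matches to GGGCGG and 1 to CACCC, and the Klf6 window 1 to GGGCGG and none to CACCC. Of all 32851 windows of the same length, 32.7% held GGGCGG, 8.5% held it at least 3 times, and 52.0% held CACCC. Of the 6 measured Klf genes with a window in the table, 5 held GGGCGG (all but Klf9) and 4 held CACCC. These windows were GC-rich, with 74.0% for Klf4, 71.2% for Klf2 and 64.8% for Klf6, against a median of 52.4% over all windows. The matches are letters in a sequence and not binding sites. The letters ATGCAAAT, an octamer bound by Oct3/4, were in none of the 6 windows, beside 1.6% of all windows. The letters TTCNNNGAA, of the kind Stat3 binds, were only in that of Klf9, beside 7.0% of all windows. At such shares these counts do not set the Klf genes apart.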

How the data were processed

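Per the file headers, the authors ran Agilent Feature Extraction A.7.5.1. Its deposited output gives intensity values, both as scanned (spot means and local background medians) and processed (LOWESS dye normalisation), and log10 ratios of red over green. A deposited series table has log10 values, and the sources used here do not say how they were made. Within 2e-04, 99.6% of its values on either array equalled the mean log10 red processed signal of the arrays less that array's log10 ratio. Its ratios and their direction are thus those of the processed signals, uncentred (medians 2.92 and 2.92).

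Background was corrected in limma 3.58.1 (R 4.3.3) by normexp with an offset of 50 on spot means and local background medians. Loess followed on each array, giving control spots weight 0. Ratios are log2 of ES cells (green) over reference (red). Outlier spots removed 24 probes. The other 21028 were tested against 0 by lmFit and eBayes (residual degrees of freedom 1, prior 4.24), and p-values were adjusted by Benjamini-Hochberg over all of them. Spot signals are the mean less the local background median. The detection limit was the 95th percentile of 162 negative control spots, because the software's own flag marked 100% of these spots as detected in the ES channel. RefSeq accessions (GRCm38.p6 table, used for names) gave 10422 probes 1 symbol and 10630 none. The brightest probe stood for a gene. Probe sequences are from the scanner files and promoter sequences from RefSeq. The fit was tested on simulated data. Planned protein comparisons were not made, as no protein sequences were used here. The genes and lists were chosen with earlier results of these data known. All measured Klf and Sp genes were named, and of the self-renewal, cofactor and modification lists the 4 genes past the threshold with the largest absolute ratios, except that 1 of these genes is not reported here. Esrrb, Nr5a2, Fgf4, Krt18, Tfap2c, Sparc, Vim, Col1a1, Col1a2 and Dcn were named, and marker sums without the brightest marker added, after their values were seen. The number of arrays limits the precision.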

Additional observations from a re-analysis of the deposited data

How the results depend on the processing

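All 8 Klf genes kept the sign of their ratio under the 11 other settings (10 for Klf13) and on either array alone, and 7 kept their side of the threshold under all of them. The exception was Klf10, at 0.13 with median centring. Settings that only filter probes or change the test leave each ratio as it was, so a sign could not change there. The series table repeats the ratios of the processed signals, so it is no separate trial of the sign. Of 23 other genes of the family and the lists, only Klf15, which did not pass as reported, changed sign, with ratios of 0.00196 without background correction, 0.00194 with background from the negative control spots, 0.13 with median centring and 0.22 without normalisation. Without normalisation Klf11 (0.11) and Vhl (-0.14) did not pass and Klf1 (0.40) did. Klf4 ranged from 0.31 (median centring) to 0.54 (the software's processed signals), and from 0.43 to 0.59 on single arrays. With the 2-fold rule, the counts were 3 higher and 1 lower among the 8 genes and 1068 higher and 1092 lower among all probes. With ratios past every negative control spot, they were 3 higher among the 8 genes and 2552 higher and 2273 lower among all probes. Without normalisation within arrays the median of all probes moved by 0.10, the probes called lower numbered 4321 and the share of higher among all calls was 64.2%, against 50.2% as reported. Each Klf gene had 1 probe, so no average over probes was needed, and the filter on well-above-background probes removed none. No paired analysis was possible because there is 1 group, and a slide block could not be fitted because each slide holds 1 array. Single arrays allow no test. Low signal limits Klf13, Klf1, Sp4 and Sp8.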
